A study of Mus musculus with 2 samples.

Results

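The 9 genes described here code for matricellular proteins, and they are *Tnc*, *Tnn*, *Postn*, *Thbs1*, *Thbs2*, *Thbs3*, *Thbs4*, *Spp1* and *Sparc*. They were taken by gene symbol from the 27998 genes of the count tables, and each symbol named 1 gene. Their transcripts were counted in single Tomato+ cells sorted from the dermis of healing mouse skin wounds. The study asked what constitutive Hedgehog (Hh) activation does to wound dermal cells. The control mice were *SM22rtTA; tetO-Cre; R26-Tomato*, and the *SM22-SmoM2* mice were *SM22rtTA; tetO-Cre; R26-SmoM2/Tomato*. Both groups carried rtTA driven by the *SM22* promoter, which is active in smooth muscle and in wound myofibroblasts, and in both a Cre under tetO control switched on the red protein Tomato under doxycycline. In the *SM22-SmoM2* mice the same Cre also switched on SmoM2, an always active form of the Hh signal transducer Smoothened. All mice were 4 to 5 weeks old by their labels, received doxycycline at 20 g/kg from day 1 after wounding, and gave wounds 3 days after closure of the epidermis. Each condition was 1 library that pooled the wounds of several mice, so no value below has a replicate error and no test between conditions was possible.

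Matricellular proteins are secreted into the extracellular matrix but act mainly as regulators of cell adhesion, growth factor activity and collagen assembly rather than as structural fibres. Most are scarce in resting adult skin and appear in the dermis of healing wounds and around developing hair follicles. Tenascins and thrombospondins are large multimeric glycoproteins, periostin and osteopontin bind integrins, and SPARC binds collagen.

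Promoter sequence is shown for *Postn* and *Thbs2*, the pair of members whose levels were most alike over fibroblast sub-clusters, and for *Thbs3* and *Thbs4*, which had 2 of the 3 lowest ratios between the libraries. Of the starts listed for *Postn* the one nearest the GENCODE start is shown. Each line gives the 250 bases before the transcription start from RefSeq on GRCm38.p6, 5′ to 3′ on the strand of the gene. Capitals mark TATAAA and CAGACA, a motif that holds the short SMAD element, on either strand. The windows were chr3:54360857-54361106 on the plus strand for *Postn*, chr17:14694263-14694512 on the minus strand for *Thbs2*, chr3:89214930-89215179 on the plus strand for *Thbs3* and chr13:92794819-92795068 on the minus strand for *Thbs4*.
*Postn*: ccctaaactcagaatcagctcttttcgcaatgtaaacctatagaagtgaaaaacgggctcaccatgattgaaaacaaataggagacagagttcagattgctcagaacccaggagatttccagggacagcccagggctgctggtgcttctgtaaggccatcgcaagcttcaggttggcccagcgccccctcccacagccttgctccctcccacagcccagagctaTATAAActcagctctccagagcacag
*Thbs2*: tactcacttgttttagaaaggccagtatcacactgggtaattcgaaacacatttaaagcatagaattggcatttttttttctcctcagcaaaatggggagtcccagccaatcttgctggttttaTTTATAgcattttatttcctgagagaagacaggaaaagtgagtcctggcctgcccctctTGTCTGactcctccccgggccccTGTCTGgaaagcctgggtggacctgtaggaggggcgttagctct
*Thbs3*: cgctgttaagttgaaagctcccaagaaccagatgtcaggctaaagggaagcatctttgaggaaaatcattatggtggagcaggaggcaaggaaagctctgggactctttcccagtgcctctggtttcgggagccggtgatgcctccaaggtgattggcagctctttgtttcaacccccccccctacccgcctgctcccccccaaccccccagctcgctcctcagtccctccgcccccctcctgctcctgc
*Thbs4*: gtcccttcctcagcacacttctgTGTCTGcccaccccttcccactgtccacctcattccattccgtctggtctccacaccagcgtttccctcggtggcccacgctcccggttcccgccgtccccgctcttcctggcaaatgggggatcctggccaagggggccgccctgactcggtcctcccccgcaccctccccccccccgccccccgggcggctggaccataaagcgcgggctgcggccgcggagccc
TATAAA or its reverse complement stood in 12.4% of the 32851 promoter windows of that length, and CAGACA in 17.1%. Neither the GLI motif GACCACCCA, found in 0.225% of all windows, nor the AP-1 motif TGANTCA, found in 6.75%, was in these 4 windows. These matches are letters in a window and were not tied to any level below. By GENCODE on GRCm38 *Postn* lies on chromosome 3 from 54361109 to 54391037, *Thbs2* on chromosome 17 from 14665500 to 14694235, *Thbs3* on chromosome 3 from 89215180 to 89226837 and *Thbs4* on chromosome 13 from 92751590 to 92794818. *Thbs3* overlaps *Mtx1*, *Tnc* overlaps *8030451A03Rik* and *Thbs1* overlaps *Gm29233*, each on the opposite strand, and *Spp1* overlaps *Gm42793* on the same strand. The strand used in counting is not given in the sources used here. Whether reads of these 4 members and of their partners were kept apart could therefore not be checked.

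Of the 4680 deposited cells, 4648 passed the filters, 2856 in control and 1792 in *SM22-SmoM2*, with median depths of 8607.5 and 8837.5 unique molecular identifiers (UMIs, each a single captured transcript). Fibroblast-like cells numbered 1073 in control and 1030 in *SM22-SmoM2*, with 678 and 294 Schwann-like, 692 and 263 endothelial-like, 283 and 102 muscle-like and 81 and 33 immune-like cells. They are called fibroblasts, Schwann cells and so on below, from marker genes that did not include the members. A cluster of keratinocyte-like cells, 16 in control and 1 in *SM22-SmoM2*, was left out. *Smo*, the gene of Smoothened, was at 52.4 counts per 1000000 UMIs (CPM) in control against 56.4 CPM in *SM22-SmoM2*, and *Ptch1*, the Hh receptor and itself a target of the pathway, was at 12.2 and 143 CPM. The level of *Smo* therefore did not separate the genotypes, while *Ptch1* was higher in the library labelled *SM22-SmoM2*. Different sub-clusters held most fibroblasts of the libraries. Sub-clusters 1, 2 and 3 held 270, 234 and 259 of the control cells, and sub-clusters 4, 5, 6 and 7 held 216, 182, 147 and 140 of the *SM22-SmoM2* cells. Cells with Y-linked UMIs and no *Xist* made up 636 control and 770 *SM22-SmoM2* fibroblasts, and cells with *Xist* and no Y-linked UMIs made up 216 and 44. Sex and genotype were therefore not balanced.

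All 9 members were at a lower CPM in *SM22-SmoM2* fibroblasts than in control fibroblasts, and 4 of them, *Thbs4*, *Spp1*, *Thbs3* and *Postn*, were lower by at least 2-fold. Together the members made up 2.81% of all fibroblast UMIs in control and 1.53% in *SM22-SmoM2*. Without *Sparc* the shares were 0.597% and 0.291%. Of the 11414 genes with at least 50 UMIs in fibroblasts, 5.09% were lower and 4.64% higher by at least 2-fold, and 0 members were higher by that much. All 9 members passed the minimum of 50 UMIs. The median log2 ratio of *SM22-SmoM2* over control was -0.84 over the members and -0.08 over all genes. Among all genes, only 0.342% had a lower log2 ratio than *Thbs4*, 1.58% lower than *Spp1* and 2.44% lower than *Thbs3*. The *Spp1* ratio rested in part on 1 control cell with 443 of 941 UMIs. Without the cell with the most *Spp1* UMIs in each library it was -0.99, just inside 2-fold, and the rank was not computed again. *Tnn* lay in the middle of the genes, with 48.7% below it. Intervals here and below are 95% and cover counting error only, not differences between mice or libraries.

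**Figure D1:**
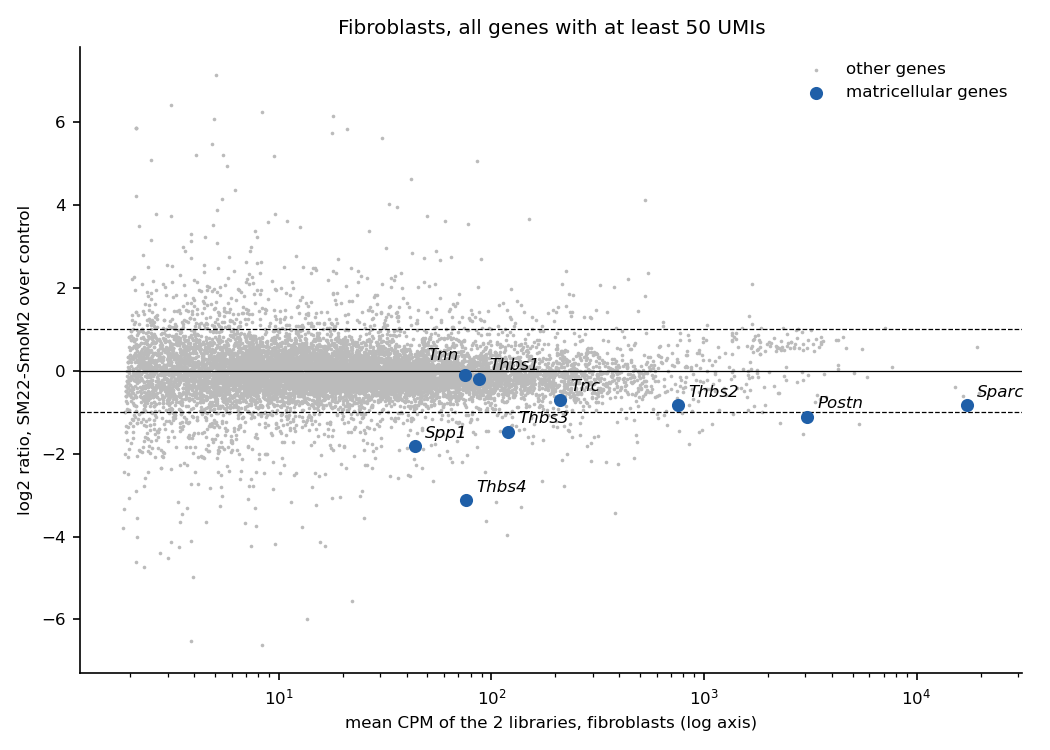
Log2 ratio of CPM, SM22-SmoM2 over control, against the mean CPM of both libraries (log axis) for each gene with at least 50 UMIs in fibroblasts. Blue points are the 9 matricellular genes, dashed lines mark a 2-fold difference, and all 9 points lie below 0, from -3.12 for *Thbs4* to -0.10 for *Tnn*.

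*Tnc* codes for tenascin-C, a hexameric glycoprotein that is deposited in wound dermis and lowers the adhesion of cells to fibronectin. It stood at 260 CPM in control fibroblasts (interval 251 to 268) and at 160 CPM (153 to 167) in *SM22-SmoM2* fibroblasts, a log2 ratio of -0.70 (-0.78 to -0.62). In Schwann cells, the glia of skin nerves, *Tnc* was at 320 CPM in control against 326 CPM in *SM22-SmoM2*. The level in Schwann cells was above that in fibroblasts in both libraries, and the ratio of the libraries there was 0.03 on the log2 scale (-0.11 to 0.16). With each cell thinned to 2500 UMIs, 34.4% of control and 23.8% of *SM22-SmoM2* fibroblasts had a *Tnc* UMI, against 2.17% and 1.90% of endothelial cells. Without thinning the shares in fibroblasts were 65.3% and 43.4%, and in endothelial cells 9.97% and 8.37%. Median depths were 12471 and 11199 UMIs in fibroblasts and 9424 and 7088 UMIs in endothelial cells.

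*Tnn* codes for tenascin-W, a tenascin of narrow expression in bone and in some stroma. It was almost exclusive to fibroblasts, which held 96.3% of its UMIs in control and 97.6% in *SM22-SmoM2*. Its level was 77.9 CPM (73.3 to 82.7) in control against 72.8 CPM (68.1 to 77.9) in *SM22-SmoM2*. These levels differed by less than the counting error, at a log2 ratio of -0.10 (-0.23 to 0.03). In Schwann, endothelial, muscle and immune cells *Tnn* had between 1 and 7 UMIs per library and lineage.

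*Postn* codes for periostin, which binds integrins and supports collagen cross-linking in wounds. It was at 4187 CPM (4153 to 4221) in control fibroblasts and 1949 CPM (1924 to 1974) in *SM22-SmoM2* fibroblasts, 2.15-fold lower. Schwann cells were second, at 2056 and 1863 CPM, with a log2 ratio of only -0.14 (-0.20 to -0.09). Muscle cells, the pericytes and smooth muscle of vessels, had 561 and 542 CPM. Without thinning, almost every fibroblast had *Postn* UMIs, with 98.0% of control and 95.4% of *SM22-SmoM2* cells above 0. With cells thinned as for *Tnc*, the shares were 94.4% and 82.8%. The level per cell also differed, with a median of 37.7 UMIs per 10000 in control and 10.4 in *SM22-SmoM2*. Within sub-clusters 1, 2, 4 and 8, which both libraries shared, the log2 ratios of *Postn* were -0.38, -0.19, -1.27 and -0.93. How far the median followed from the sub-clusters that filled each library was not tested.

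*Thbs1* and *Thbs2* code for the trimeric thrombospondins, which restrain vessel growth, and thrombospondin-1 also activates latent TGF-β. *Thbs1* was at 92.6 CPM (87.6 to 97.8) in control against 81.4 CPM (76.4 to 86.7) in *SM22-SmoM2* fibroblasts, a log2 ratio of -0.19 (-0.31 to -0.06). With cells thinned to 2500 UMIs this ratio was 0.01, so its sign was not stable. Fibroblasts held 62.6% of *Thbs1* UMIs in control and 80.2% in *SM22-SmoM2*. Of the UMIs of all genes they held 46.1% and 66.9%, so the share of *Thbs1* rose along with that of all genes. Muscle cells had 119 CPM in control against 61.1 CPM in *SM22-SmoM2*, a log2 ratio of -0.96 (-1.49 to -0.47). Endothelial cells had 46.3 and 59.2 CPM. *Thbs2* was at 969 CPM (953 to 986) in control against 545 CPM (532 to 559) in *SM22-SmoM2* fibroblasts, a log2 ratio of -0.83 (-0.87 to -0.79). In Schwann cells *Thbs2* was at 207 and 187 CPM.

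*Thbs3* and *Thbs4* code for pentameric thrombospondins, relatives of cartilage oligomeric matrix protein with roles in bone, tendon and muscle matrix. *Thbs3* was at 176 CPM (169 to 183) in control against 63.5 CPM (59.1 to 68.2) in *SM22-SmoM2* fibroblasts, 2.77-fold lower. *Thbs4* was at 136 CPM (130 to 142) in control against 15.6 CPM (13.4 to 18.0) in *SM22-SmoM2* fibroblasts, 8.69-fold lower and the lowest log2 ratio of the members at -3.12 (-3.34 to -2.90). Fibroblasts held 98.6% of *Thbs4* UMIs in control and 96.4% in *SM22-SmoM2*. At 2500 UMIs per cell 13.8% of control and 3.01% of *SM22-SmoM2* fibroblasts had a *Thbs4* UMI, against 0 of 692 and 0 of 263 endothelial cells, which allows shares of cells with a UMI at that depth, not of expressing cells, of up to 0.434% and 1.14%. Unthinned, the fibroblast shares were 26.9% and 6.80%, and the endothelial shares 1.30% and 0%.

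*Spp1* codes for osteopontin, an integrin-binding phosphoprotein made by bone cells, macrophages and injured tissue. It was highest in immune cells, at 355 CPM (312 to 402) in control against 194 CPM (152 to 245) in *SM22-SmoM2*. In fibroblasts it was at 67.8 CPM (63.6 to 72.3) and 19.3 CPM, 3.51-fold lower in *SM22-SmoM2*. A single control fibroblast held 443 of the 941 control UMIs, which is 47.1%. That cell lay in sub-cluster 10, had 29445 UMIs in all with 316 of fibroblast markers and 2 of immune markers, and was not marked as a doublet. Without the cell with the most *Spp1* UMIs in each library the levels were 36.0 and 18.1 CPM and the log2 ratio was -0.99 (-1.22 to -0.75), just inside a 2-fold difference. The count of members lower by at least 2-fold was then 3 of 9. In Schwann cells *Spp1* was at 40.1 CPM in control against 61.4 CPM in *SM22-SmoM2*.

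*Sparc* codes for osteonectin, which binds collagen and guides its assembly, and it was the most abundant member in each lineage. UMIs count molecules by their 3′ ends, so levels of different genes are not divided by length. *Sparc* was at 22105 CPM (22027 to 22184) in control against 12378 CPM (12315 to 12441) in *SM22-SmoM2* fibroblasts, a log2 ratio of -0.84 (-0.85 to -0.83). Each fibroblast of both libraries had *Sparc* UMIs. In Schwann cells it was at 11357 and 8804 CPM, in muscle cells at 6968 and 6535 CPM and in endothelial cells at 5897 and 5398 CPM. In these 3 lineages the log2 ratios were -0.37, -0.09 and -0.13, all nearer to 0 than in fibroblasts.

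**Figure D2:**
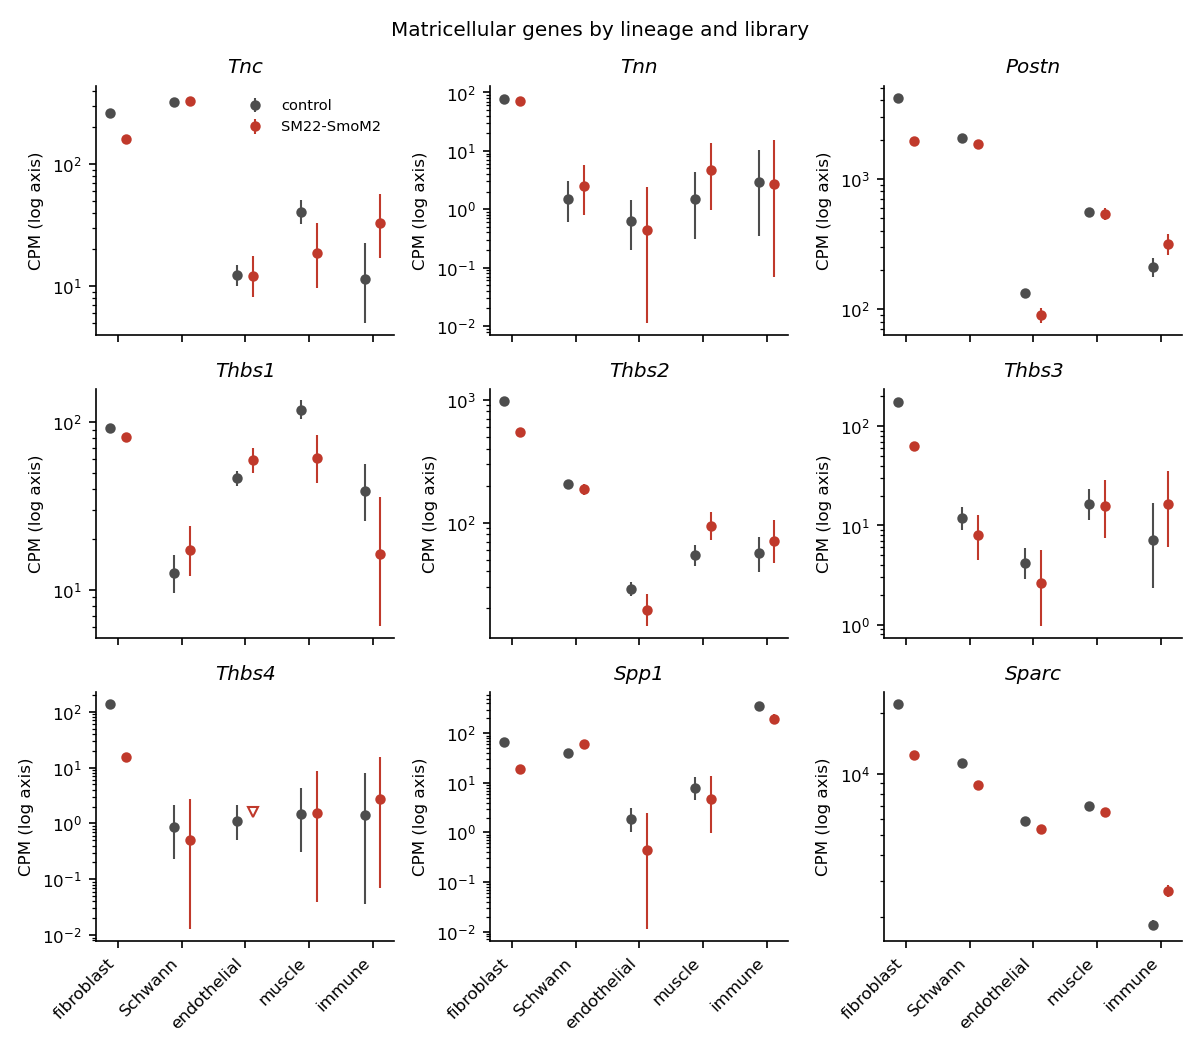
CPM (log axis) of each matricellular gene by lineage in the control library (grey) and the SM22-SmoM2 library (red), with 95% Poisson intervals for counting error. The open triangle is the upper limit where no UMI was counted, and *Tnn* stands at 77.9 and 72.8 CPM in fibroblasts and below 5 CPM in Schwann, endothelial, muscle and immune cells.

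Low levels outside fibroblasts were read against 7 transcripts that only fibroblasts should hold. These were *Pdgfra*, *Dpt*, *Lum*, *Mfap5*, *Pi16*, *Clec3b* and *Dcn*. Each was also a marker used to name fibroblasts, which may lower this background, and that was not tested. For these 7 genes the median level in Schwann cells was 1.20% of the fibroblast level in control and 2.30% in *SM22-SmoM2*. It was 1.92% and 2.13% in endothelial cells, 3.15% and 8.62% in muscle cells, and 6.06% and 20.5% in immune cells. *Tnc* in Schwann cells was at 123% and 204% of its fibroblast level and *Postn* at 49.1% and 95.5%, far above this background. *Tnn* in Schwann cells, at 1.91% and 3.40%, lay within the range of the 7 genes. In the 33 immune cells of *SM22-SmoM2* only *Spp1* was above the highest of the 7 genes, and *Postn* and *Sparc* there, at 16.3% and 21.6%, were not above this background.

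The libraries were also compared within the other lineages, where the members had fewer UMIs. In Schwann cells 0 of 7 tested members were lower and 0 higher by 2-fold, where 1.87% and 1.16% of genes were. *Spp1* in Schwann cells passed 2-fold with thinning, at 1.26, with the mean of per-cell CPM, at 1.22, and in female cells, at 1.07. In endothelial cells 0 of 5 were lower or higher, with 1.54% and 0.587% of genes. In muscle cells *Tnc* alone of 5 tested members was lower, at 40.8 and 18.8 CPM on 82 and 12 UMIs, with 2.69% of genes lower, 1.05% higher and 0 members higher. The *Tnc* ratio there was -1.12, or -0.51 with Leiden clustering. The *Thbs1* ratio of -0.96 passed 2-fold under most alternatives, reaching -2.45 with thinning, but was 0.34 in female cells. In immune cells 0 of 4 were lower or higher, with 6.46% and 2.83% of genes. The difference between lineages was not tested. A cluster of 50 cells, all from *SM22-SmoM2*, had 4 raised markers of a lineage other than fibroblasts but none of that lineage's markers among its top 10 genes. By a rule set after the clusters were seen it got no lineage name, and it was kept out of the fibroblasts. The gene *a*, *Ibsp* and *Cd24a* led it. Its top 10 genes also held *Rspo3* and *Alpl*, the latter a dermal papilla marker in the study. In it *Ptch1* was at 313 CPM and *Gli1*, a readout of the Hh pathway, at 117 CPM. In *SM22-SmoM2* fibroblasts they were at 143 and 31.1 CPM. Counting this cluster with the fibroblasts left the count of members lower by 2-fold at 4. The cluster had *Postn* at 785 CPM, *Tnc* at 93.7 CPM and *Sparc* at 2735 CPM. A *Tnn* UMI was found in 0 of 50 cells at a median depth of 4703.5 UMIs. That allows a share of cells with a UMI of up to 6%.

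The members were spread unevenly over fibroblast sub-clusters, which were formed without them. *Tnn* was highest in sub-cluster 1, led by *Prss35*, *Igfbp2* and *Col7a1*, in both libraries, at 199 CPM (185 to 215) in control against 363 CPM (331 to 398) in *SM22-SmoM2*. That sub-cluster held 61.0% of control and 52.2% of *SM22-SmoM2* *Tnn* UMIs in fibroblasts but 25.2% and 10.1% of the cells. *Tnc*, *Postn* and *Thbs2* also had their highest level there in both libraries, *Postn* at 5716 and 4406 CPM and *Thbs2* at 1657 and 1346 CPM. *Thbs3* was at its lowest there in both, at 18.5 and 12.8 CPM.

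*Thbs4* was concentrated in sub-clusters that *SM22-SmoM2* nearly lacked. Sub-cluster 11, led by *Cst6*, *Trf* and *Apod*, had 59 control and 3 *SM22-SmoM2* cells, a level of 1495 CPM (1403 to 1591) in control and 52.5% of the control UMIs. Sub-cluster 9, led by *Eln*, *Fbln7* and *Angptl1*, had 84 and 0 cells, 530 CPM (482 to 581) and 24.1% of the UMIs. In the other sub-clusters with at least 30 control cells the level ran from 3.95 to 76.7 CPM. Without sub-clusters 9 and 11 *Thbs4* was at 35.6 CPM in control against 13.8 CPM in *SM22-SmoM2*, a log2 ratio of -1.37 (-1.64 to -1.11) in place of -3.12. Among sub-clusters of at least 30 control cells *Spp1* was also highest in sub-cluster 11, at 245 CPM (209 to 286), and *Postn* and *Thbs2* were lowest there, at 271 and 24.2 CPM. *Thbs3* was highest in sub-cluster 3, led by *Nov*, *Eln* and *Sfrp2*, which had 259 control and 3 *SM22-SmoM2* cells, at 362 CPM (344 to 382). In *SM22-SmoM2* sub-cluster 7, led by *Penk*, *Egfl6* and *Wif1*, *Tnc* was at 14.4 CPM, *Thbs1* at 12.8 CPM and *Thbs2* at 136 CPM, each the lowest of 8 sub-clusters. A sub-cluster held almost wholly by 1 library cannot be told apart from that library.

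**Figure D3:**
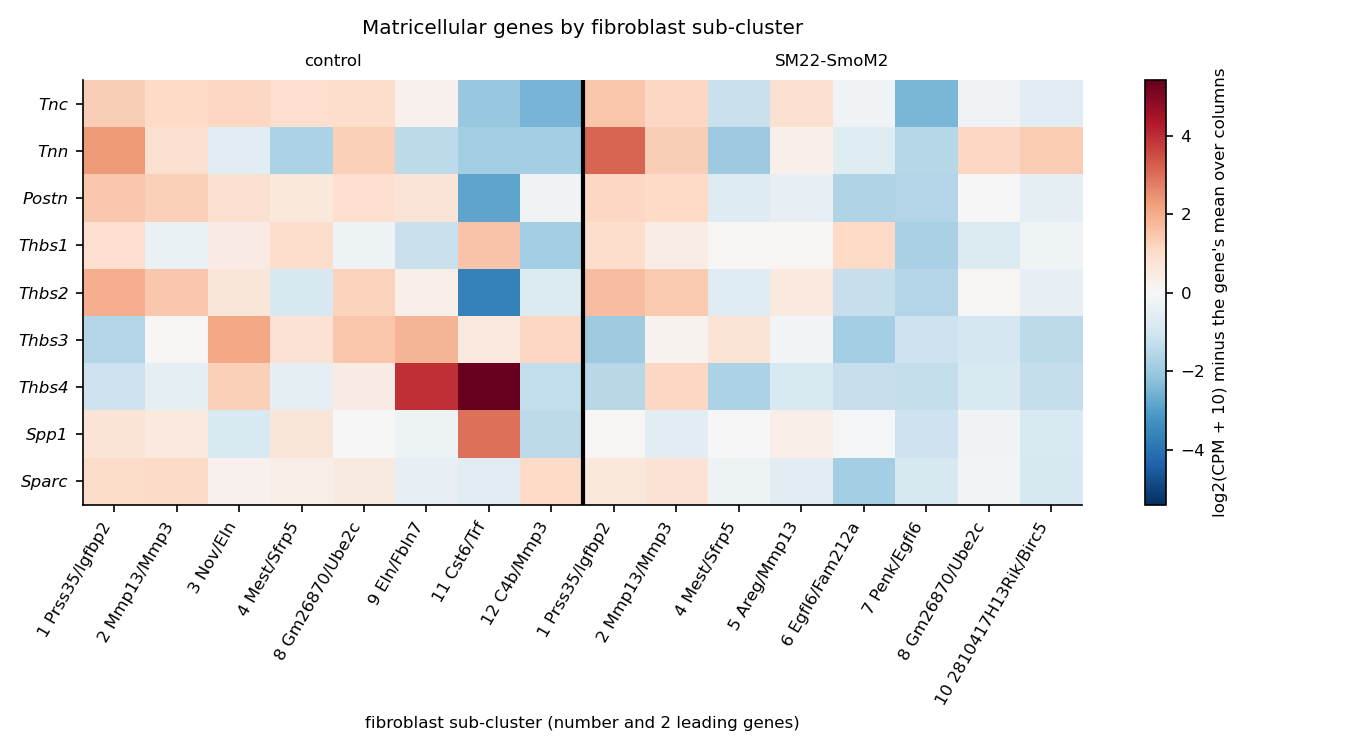
Level of each matricellular gene in fibroblast sub-clusters with at least 30 cells, as log2(CPM + 10) minus the mean of the gene over all columns, control on the left and SM22-SmoM2 on the right. Columns carry the sub-cluster number and 2 leading genes, and the darkest cell is *Thbs4* in control sub-cluster 11, at 1495 CPM.

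Within the 4 sub-clusters that both libraries filled with at least 30 cells, the ratios depended on the sub-cluster. In sub-cluster 1 0 of 8 tested members were lower or higher by 2-fold, with 3.27% and 1.56% of genes, and *Tnn* was 0.86 higher on the log2 scale in *SM22-SmoM2* (0.69 to 1.04). In sub-cluster 2, led by *Mmp13*, *Mmp3* and *Ctla2a*, *Thbs4* was at 14.2 CPM in control against 66.7 CPM in *SM22-SmoM2*, on 41 and 101 UMIs, a log2 ratio of 2.24 (1.70 to 2.80) against its direction in all fibroblasts. It was the only 1 of 9 members higher there, with 1.33% of genes, and *Spp1* the only 1 lower, with 1.86% of genes. In sub-cluster 4, led by *Mest*, *Sfrp5* and *Cldn1*, *Tnc*, *Postn* and *Thbs1* were lower by 2-fold among 7 tested members, with 4.08% of genes lower, 6.62% higher and 0 members higher. *Tnc* there was at 248 CPM in 34 control cells and 49.5 CPM in 216 *SM22-SmoM2* cells. In sub-cluster 8, led by cell cycle genes, *Tnc*, *Thbs2* and *Thbs3* were lower among 7 tested members, with 7.37% of genes lower, 3.18% higher and 0 members higher. *Sparc* was lower in each of the 4, with log2 ratios of -0.38, -0.27, -0.58 and -0.64.

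Fibroblasts were next divided by detection of *Crabp1*, a retinoic acid-binding protein of wound and papillary fibroblasts. A *Crabp1* UMI was found in 565 of 1073 control and 340 of 1030 *SM22-SmoM2* fibroblasts, which is 52.7% and 33.0%. At 2500 UMIs per cell the shares were 37.3% and 19.7%, against 2.17% and 1.14% of endothelial cells, and unthinned 9.39% and 5.32% of endothelial cells. Cells with *Crabp1* were deeper, with medians of 13324 against 11108.5 UMIs in control and 12666.5 against 10344.5 UMIs in *SM22-SmoM2*. *Tnn* followed *Crabp1* most closely. In control it was at 127 CPM in cells with and 15.6 CPM in cells without *Crabp1*, a log2 ratio of 3.02 (3.04 after thinning). In *SM22-SmoM2* it was at 181 and 7.40 CPM, a log2 ratio of 4.61 (3.98 after thinning). *Thbs2* was higher with *Crabp1* in both libraries, by 1.26 and 1.55 on the log2 scale. *Thbs4* and *Thbs3* were lower with *Crabp1* in control, by log2 ratios of -2.69 and -1.26, or -4.12 and -2.25 after thinning. In control 3 of 9 members were higher and 2 lower by 2-fold, where 2.85% and 3.9% of genes were. In *SM22-SmoM2* 4 were higher and 0 lower, with 2.04% and 2.95% of genes. The third member higher in control was *Spp1*, at 90.8 and 38.5 CPM, and without the single cell of 443 UMIs its ratio was -0.18 (-0.44 to 0.08).

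*Wnt2*, which codes for a Wnt ligand, was detected in 314 control and 105 *SM22-SmoM2* fibroblasts, 29.3% and 10.2%. At 2500 UMIs per cell it was found in 14.1% and 3.40%, against 0.434% and 0% of endothelial cells, or 2.17% and 0% unthinned. Median depths were 15202 with and 11673 UMIs without *Wnt2* in control, and 14022 and 10756 UMIs in *SM22-SmoM2*. In control *Thbs3* was at 322 CPM with and 93.3 CPM without *Wnt2*, a log2 ratio of 1.79 (1.45 after thinning). *Tnn* was at 24.99 and 108 CPM, a log2 ratio of -2.11, and *Spp1* at 10.2 and 100.3 CPM, a log2 ratio of -3.30, or -2.31 without the single cell of 443 UMIs. These 3 were the members past 2-fold in control, 1 higher and 2 lower, with 5.24% and 5.41% of genes. In *SM22-SmoM2* 0 members were higher or lower, with 1.9% and 3.84% of genes, and *Thbs3* was nearest at 0.86 (0.60 to 1.11). After thinning *Thbs3* passed 2-fold there, at 1.84 (1.04 to 2.55) on 18 and 143 UMIs.

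*Ptch1* was detected in 105 control and 593 *SM22-SmoM2* fibroblasts, 9.79% and 57.6%, or 2.98% and 25.3% at 2500 UMIs per cell. Median depths with and without *Ptch1* were 13158 and 12458.5 UMIs in control and 11656 and 10469 UMIs in *SM22-SmoM2*. Endothelial cells had *Ptch1* in 3.61% and 4.18% after thinning and in 15.03% and 14.4% before, so detection in control fibroblasts was no higher than in endothelial cells. In control Schwann, muscle and immune cells the shares were 4.42%, 1.06% and 1.23% after thinning and 8.70%, 5.30% and 2.47% before. Whether the endothelial *Ptch1* UMIs were background was not tested. Within control fibroblasts *Ptch1* was highest in sub-clusters 4 and 11, at 98.2 and 51.5 CPM. In the other sub-clusters with at least 30 control cells it ran from 1.04 to 14.9 CPM. Among these control sub-clusters *Thbs4* and *Spp1* were also highest in sub-cluster 11. In sub-cluster 4, however, *Thbs4* was at only 14.4 CPM on 5 UMIs. In sub-cluster 9 it was at 530 CPM, where *Ptch1* was at 1.17 CPM. In *SM22-SmoM2* 5 of 9 members were lower by 2-fold in cells with *Ptch1*, where 2.08% of genes were lower, 3.33% higher and 0 members higher. *Tnn* was at 26.3 CPM with and 144 CPM without *Ptch1*, a log2 ratio of -2.46 (-2.16 after thinning). *Thbs2* was at 317 and 896 CPM, *Tnc* at 94.2 and 261 CPM and *Postn* at 1224 and 3064 CPM, with log2 ratios of -1.499, -1.47 and -1.32. The thinned ratios were -1.52, -1.84 and -0.98. *Thbs4* was at 9.28 and 25.3 CPM, a log2 ratio of -1.45, or -0.69 on 8 and 38 UMIs after thinning, where the interval reached above 0. *Thbs3* had the other direction, at 71.5 and 51.3 CPM, a log2 ratio of 0.48 (0.26 to 0.71). After thinning it was 0.19 (-0.34 to 0.70) on 45 and 116 UMIs, an interval that held 0. In control only *Thbs4* passed 2-fold, higher with *Ptch1* at 282 and 119 CPM, a log2 ratio of 1.24 (1.49 after thinning), with 2.65% of genes higher, 3.61% lower and 0 members lower. Without the single cell of 443 UMIs *Spp1* passed as well, at 96.7 and 29.0 CPM, a log2 ratio of 1.73 (1.44 to 2.02).

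**Figure D4:**
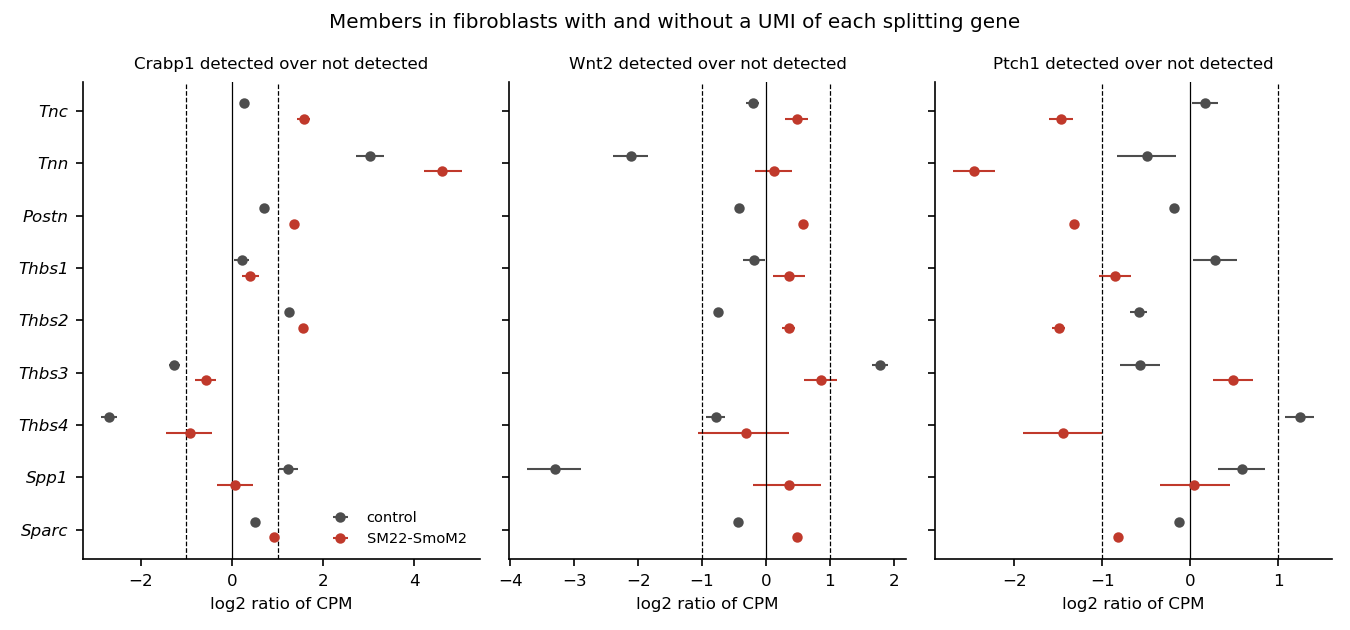
Log2 ratio of CPM of each matricellular gene in fibroblasts with over fibroblasts without a UMI of *Crabp1*, *Wnt2* or *Ptch1*, in control (grey) and SM22-SmoM2 (red), with 95% intervals for counting error. Dashed lines mark a 2-fold difference, and *Tnn* lies at 3.02 and 4.61 in the *Crabp1* panel and at -2.46 for SM22-SmoM2 in the *Ptch1* panel.

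The libraries were then compared within these groups, which need not hold like cells, since *Ptch1* detection in control was at the endothelial level. Among cells without *Ptch1* 3 of 9 members were lower by 2-fold, with 4.84% of genes lower, 3% higher and 0 members higher, and these were *Thbs3*, *Thbs4* and *Spp1*. The call of *Spp1* rested on the single cell of 443 UMIs, without which it was at 29.0 and 18.9 CPM, a log2 ratio of -0.62 (-0.97 to -0.28), and the count was 2. *Tnc* was then at 257 CPM in control against 261 CPM in *SM22-SmoM2*, a log2 ratio of 0.02 (-0.07 to 0.12). *Tnn* was at 80.3 and 144 CPM, a log2 ratio of 0.85 (0.70 to 0.99), and *Thbs1* at 90.6 and 112 CPM, a log2 ratio of 0.30 (0.15 to 0.45). *Postn* was at 4239 and 3064 CPM, a log2 ratio of -0.47 (-0.49 to -0.44). Among cells with *Ptch1* 7 of 9 were lower by 2-fold, with 4.64% of genes lower, 6.53% higher and 0 members higher. *Tnc* was at 288 and 94.2 CPM and *Postn* at 3730 and 1224 CPM, log2 ratios of -1.61 for both. Among cells with *Crabp1* *Tnc* was at 281 and 273 CPM, and 3 of 9 members were lower, with 2.72% of genes lower, 2.79% higher and 0 members higher. Without the cell of 443 UMIs *Spp1* was at 34.0 and 19.8 CPM there, a log2 ratio of -0.78, and the count was 2. Among cells without *Crabp1* *Tnc* was at 233 and 91.8 CPM, a log2 ratio of -1.34. There 6 of 9 members were lower, with 6.5% of genes lower, 5.68% higher and 0 members higher. Among cells with *Wnt2* 2 of 9 members were higher, with 4.07% of genes, namely *Tnn* at 24.99 and 78.5 CPM and *Spp1* at 10.2 and 23.8 CPM. *Thbs3* and *Thbs4* were lower there, with 6.51% of genes. Among cells without *Wnt2* 5 of 9 members were lower, with 5.13% of genes lower, 5.82% higher and 0 members higher.

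**Figure D5:**
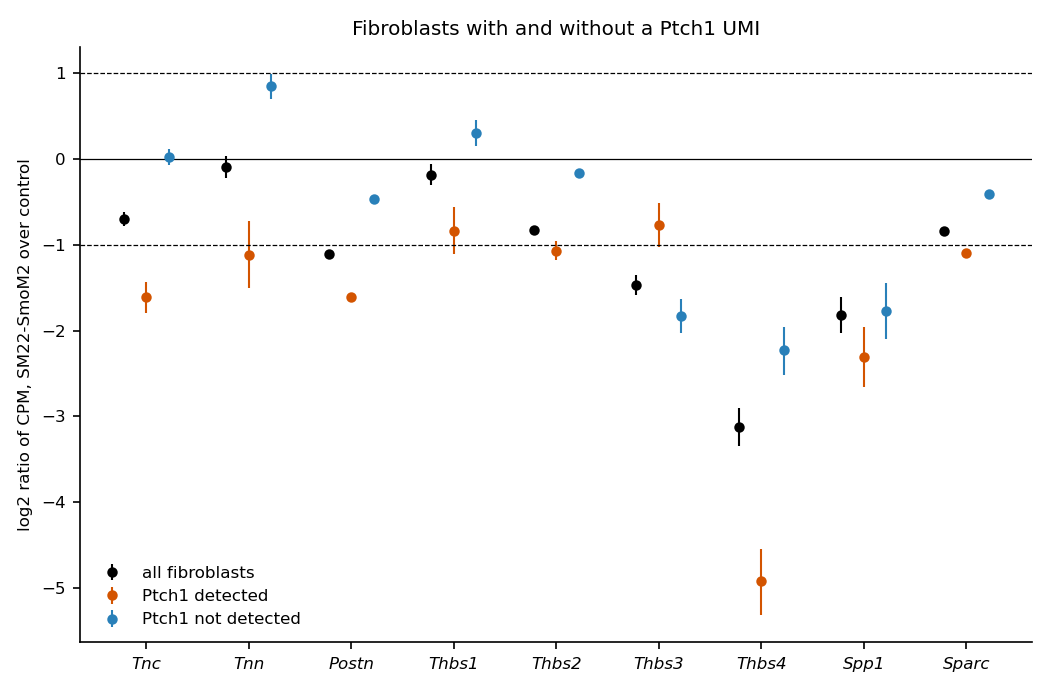
Log2 ratio of CPM, SM22-SmoM2 over control, of each matricellular gene in all fibroblasts (black), in fibroblasts with a *Ptch1* UMI (orange) and in those without (blue), with 95% intervals for counting error. In cells without *Ptch1* the *Tnc* point lies at 0.02 and *Tnn* at 0.85, and in cells with *Ptch1* both lie below -1, while *Thbs3* lies lower without *Ptch1* than with it.

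The members also differed between cells of male and of female mice within control fibroblasts. *Thbs4* was at 165 CPM (157 to 174) in male and 12.4 CPM (8.41 to 17.6) in female cells, and *Thbs3* at 210 and 55.1 CPM. *Thbs2* was higher in female cells, at 1390 CPM against 864 CPM in male cells. In *SM22-SmoM2* fibroblasts *Thbs2* had the other direction, at 382 CPM in 44 female cells against 537 CPM in male cells. Sub-cluster 11 had 45 male and 0 female cells, sub-cluster 9 had 61 and 0, and sub-cluster 3 had 206 and 4. Sex, the single mouse and the sub-cluster could not be told apart here, since the labels do not tie cells to mice. Among male cells alone 4 of 9 members were lower by 2-fold in *SM22-SmoM2*, with 5.34% of genes lower, 5.08% higher and 0 members higher, *Thbs4* at 165 and 13.5 CPM and *Postn* at 3968 and 1941 CPM. Without the cell of 443 UMIs, which was male, *Spp1* was at 36.7 and 18.8 CPM in male cells, a log2 ratio of -0.96, and the count was 3. Among female cells alone 6 of 8 tested members were lower, with 11% of genes lower, 4.61% higher and 0 members higher, on 44 *SM22-SmoM2* cells of which 22 lay in sub-cluster 7. *Thbs4* in female cells had 31 UMIs in control and 0 in *SM22-SmoM2*, at least 1.75-fold lower when 3 UMIs stand for 0. *Spp1* in female cells was at 43.9 and 37.8 CPM, a log2 ratio of -0.22 (-1.08 to 0.54).

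UMIs of some members lay in few cells. For each gene, the 107 control fibroblasts with the most UMIs of it held 94.9% of *Spp1*, 82.2% of *Thbs4* and 66.1% of *Tnn* UMIs, against 28.9% of *Postn* and 24.1% of *Sparc* UMIs. Such shares also depend on the level. Unthinned, 14.4% of control fibroblasts had an *Spp1* UMI and 98.0% a *Postn* UMI. *Thbs1*, at 92.6 CPM beside 77.9 CPM for *Tnn*, had a share of 55.4%. Of the *Spp1* UMIs 47.1% lay in 1 cell. At 2500 UMIs per cell *Tnc* and *Tnn* were found together in 6.80% of control fibroblasts, where the product of the single shares was 4.62%, and in 6.02% of *SM22-SmoM2* fibroblasts, where it was 2.40%. *Tnn* and *Thbs2* were together in 12.6% and 8.64% of cells, against products of 9.82% and 5.05%. *Thbs3* and *Thbs4* were together in 5.87% of control cells against a product of 4.14%. Of the 28 pairs without *Sparc*, which nearly every cell had, 14 were above their product in control and 23 in *SM22-SmoM2*. Some of the 23 were near their product or rested on few cells. *Postn* and *Thbs3* were at 1.005 times it, and *Tnn* and *Thbs4* were together in 4 cells. The same count over pairs of other genes was not made, so these counts are not a result about the members. All shares of cells given here come from 1 library each, whose cells share its depth.

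Over 14 profiles, each a sub-cluster of 1 library with at least 50 cells, the levels of 8340 genes were compared with each member. The points share their library, and the r values are descriptions. *Tnn* was most like *Crabp1*, with Pearson's r of 0.96 on log2(CPM + 10), followed by *Col7a1* and *Tmem26* at 0.94 and 0.93. *Postn* was most like *P4ha3* at 0.97, *Thbs2* at 0.96 and *Sh3pxd2b* at 0.95, and *Thbs2* was most like *Postn*, *Itgb5* at 0.95 and *Col12a1* at 0.93. *Sparc* was most like *Cercam* at 0.97, *Col3a1* at 0.96 and *Tctn1* at 0.94. *Thbs3* was nearest to *Arhgap21* at 0.96, *Rabgap1l* at 0.96 and *Spon2* at 0.95, and *Thbs4* to *Clcn5* at 0.94, *Pgm2* at 0.93 and *Degs1* at 0.91. *Tnc* was nearest to *Prr5l*, *Nrg1* and *Mapk6*, each at 0.91. *Spp1* was nearest to *Lyrm5* at 0.92, *Tanc1* at 0.91 and *Inf2* at 0.89, and *Thbs1* to *Fscn1* at 0.85, *Ptger4* at 0.83 and *Golph3* at 0.82. The r of *Thbs4* with *Thbs2* was -0.35.

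Genes related to the members were counted on 3 lists in fibroblasts, and 0 of their tested genes were higher by 2-fold in *SM22-SmoM2*. Of 15 matricellular relatives 8 reached 50 UMIs and 4 of these were lower by 2-fold, with a median log2 ratio of -0.78. *Tnxb*, the gene of tenascin-X, which organizes collagen fibrils, was at 174 CPM in control against 14.0 CPM in *SM22-SmoM2*, and *Tgfbi*, a periostin relative, at 384 and 55.7 CPM. *Ecm1* was at 358 and 119 CPM, and *Sparcl1*, a SPARC relative, at 50.1 and 25.01 CPM. *Sparcl1* was far higher in endothelial cells, at 1743 and 1500 CPM, and in muscle cells, at 2175 and 1946 CPM. Whether its UMIs in fibroblasts were transcripts from those cells was not tested. *Ibsp*, an osteopontin relative of bone, was at 6.34 and 9.99 CPM. These values leave out the unnamed cluster of 50 *SM22-SmoM2* cells, in which *Ibsp* was a leading gene. The *Ibsp* ratio with those cells was not computed. *Smoc1*, another SPARC relative, had 0 UMIs in control and 33 in *SM22-SmoM2*, under the minimum of 50. Of 17 receptors of these proteins 14 were tested and 3 lower, with a median of -0.34. These were the integrin subunits *Itga9*, at 6.70 and 2.69 CPM, and *Itgb3*, at 33.9 and 15.8 CPM, and *Cd44*, the hyaluronan receptor that also binds osteopontin, at 365 and 168 CPM. With cells thinned to 2500 UMIs 0 of the receptors passed 2-fold with at least 50 UMIs left. *Itga9* had only 93 and 32 UMIs before thinning, so it may have left the count for too few UMIs. Of 10 matrix partners all were tested and 2 were lower, with a median of -0.55. *Fn1*, the gene of fibronectin, was at 1398 and 506 CPM, and *Mmp2*, a gelatinase, at 878 and 422 CPM. These lists are to be read beside the 5.09% of all genes that were lower and the median of -0.08 over all genes.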

How the data were processed

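Tomato+ dermal cells were sorted from pooled wounds and run as 1 10x Genomics 3′ library per condition. Per the labels and the study's methods, the authors used bcl2fastq and Cell Ranger with mm10, and deposited raw UMI counts per gene and cell. Versions, annotation and strand are not given in the sources used here. Counts were not normalized before deposit. The barcode list could not be matched to matrix columns, so barcodes shared by the libraries were not counted. The members and gene lists were chosen with earlier results of these data known.

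Cells with at most 10% mitochondrial UMIs and at least 200 genes were kept. Clusters came from k-means (20 clusters, then 15 of fibroblasts) on 20 principal components of 2000 variable genes, leaving out the reported, mitochondrial, ribosomal and sex-linked genes (Python 3.11.15, scikit-learn 1.9.0, scanpy 1.11.5). A lineage name needed 3 raised markers. After the clusters were seen, a non-fibroblast name also needed a marker of its own among the top 10 genes, and sub-clusters led by markers of another lineage (33 control and 19 *SM22-SmoM2* cells) were left out as mixed. Scrublet marked 5 control and 11 *SM22-SmoM2* cells, too few to serve as a doublet filter, and these were kept. UMIs were summed per library and group of cells and divided by all UMIs of that group. Levels carry exact Poisson intervals, and log2 ratios exact conditional intervals. A gene was called higher or lower at a log2 ratio of at least 1 in size with at least 50 UMIs in both groups together. With 1 library per condition no p-value was computed. Genes outside the members were named where they were on a list and past the fold, led a cluster, or were among the 3 most alike to a member by Pearson's r over genes with at least 200 UMIs. *Ibsp*, *Smoc1*, *Gli1*, *Rspo3* and *Alpl* were named after their values were seen. Male and female cells were told apart by Y-linked and *Xist* UMIs. The calculations were tested on simulated data. Promoters are from RefSeq, and gene positions from GENCODE.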

Additional observations from a re-analysis of the deposited data

Results flagged for a closer look

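For 5 members the libraries differed in opposite directions in fibroblasts and in another lineage. All values are log2 ratios of *SM22-SmoM2* over control from 1 library each, and the difference between lineages was not tested. *Spp1* was at -1.81 in fibroblasts and 0.62 in Schwann cells, and without the cell with the most *Spp1* UMIs in each library and lineage the ratios were -0.99 and 0.75. *Thbs2* was at -0.83 in fibroblasts and 0.79 in muscle cells, on 109 control and 60 *SM22-SmoM2* UMIs in muscle. A single muscle cell held 24 of those 60 UMIs, and without the top cell of each library the muscle ratio was 0.26 (-0.34 to 0.82), and it was 0.19 without Scrublet doublets, 0.16 at up to 5% mitochondrial UMIs and 0.073 with the reported genes kept in the clustering. *Thbs1* was at -0.19 in fibroblasts and 0.35 in endothelial cells, and both signs turned when cells were thinned to 2500 UMIs. *Postn* was at -1.10 in fibroblasts and 0.60 in immune cells, and *Sparc* at -0.84 and 0.54. Both immune ratios turned negative with Leiden clustering, at -0.37 and -0.039, and with the reported genes kept, at -0.35 and -0.079. The 33 immune cells of *SM22-SmoM2* had *Postn* at 16.3% and *Sparc* at 21.6% of the fibroblast level, where genes of fibroblasts alone reached from 16.3% to 35.3%.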

How the results depend on the processing

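All 9 members kept their lower level in *SM22-SmoM2* fibroblasts except *Thbs1*, at 0.014 with cells thinned to 2500 UMIs, and *Tnn*, at 0.13 in male cells with an interval that held 0. The count lower by 2-fold was 4 under all alternatives but female cells alone (6) and leaving out the cell with the most UMIs of each gene (3). In other lineages these log2 ratios turned, among those whose interval lay apart from 0: *Thbs1* in endothelial cells, to -0.24 with thinning and -0.28 in female cells, and in muscle cells, to 0.34 in female cells; *Sparc* in muscle cells, to 0.020 in male cells; and in immune cells *Postn*, to -0.37 with Leiden clustering and -0.35 with the reported genes kept in the clustering, and *Sparc*, to -0.039 and -0.079 under the same settings and -0.21 in male cells. Ratios whose interval held 0 and that also turned were *Thbs2* in immune cells (-0.48 with Leiden clustering and with the reported genes kept), *Postn* in muscle cells (0.19, male), *Thbs2* in Schwann cells (0.10, female) and *Tnc* in Schwann and endothelial cells. Thinning moved the count of members past 2-fold from 0 to 1 for *Wnt2* in *SM22-SmoM2*, from 3 to 4 for *Wnt2* in control, from 4 to 5 for *Crabp1* in *SM22-SmoM2*, from 1 to 4 for *Ptch1* in control and from 5 to 3 for *Ptch1* in *SM22-SmoM2*, and the count of receptors from 3 to 0. At least 2 UMIs of the dividing gene gave 1 for *Wnt2* in *SM22-SmoM2* and 4 for *Ptch1* in control, and the mean of per-cell CPM gave 2 for the latter. The minimum of 50 UMIs also held after thinning, so a gene could leave a count by having too few. Some ratios by detection that were inside 2-fold changed sign with thinning. *Tnc* by *Ptch1* in control went from 0.17 to -0.90 (-1.91 to -0.05), on 11 and 666 UMIs. *Thbs2* by *Wnt2* in *SM22-SmoM2* went from 0.36 to -0.60 (-1.18 to -0.07). The others that turned, among them *Thbs1* by *Ptch1* in control at -0.77, had thinned intervals that held 0. The causes were not tested. Leaving out the top cell, sub-clusters 9 and 11, and counting the unnamed cluster with fibroblasts were chosen after seeing the data, as were the alternatives for the lists and for Scrublet in detection together. Of 89 other fibroblast values 55 stayed within their interval, as did 139 of 192 in other lineages and 204 of 318 by detection. Depth limited *Tnn* and *Thbs4* outside fibroblasts, and *Spp1* in endothelial and muscle cells. No paired analysis was possible because each condition had 1 library.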
